A study of Rattus norvegicus with 32 samples.

Results

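The neuroblast genes are 10 genes that young migrating neurons are known to use, and they were chosen by name. They are Dcx, which encodes the microtubule-binding protein doublecortin, Sox11 and Sox4, which encode SoxC transcription factors, the homeobox genes Dlx1, Dlx2, Dlx5 and Dlx6, the zinc finger factors Sp8 and Sp9, and Cd24, which encodes a small surface glycoprotein. Of these 10 names, 8 were found among the 28914 genes counted in each library, and Sox4 and Dlx6 were not analysed here. The 8 genes were followed through all 32 libraries of the series.

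Neuroblasts are young neurons that have left the cell cycle, or are about to, and still migrate. In the adult rodent brain they arise in the subventricular zone (SVZ) along the lateral ventricle, from where they travel to the olfactory bulb and become GABAergic interneurons, and in the dentate gyrus (DG), where they become granule neurons. The Dlx genes and Sp8 and Sp9 belong to the program of subpallial, GABAergic cells and are also used in the development of striatal neurons, while Dcx and Sox11 mark young neurons of many kinds.

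RNA-seq libraries came from adult male Sprague-Dawley rats that had received methamphetamine (METH, a psychostimulant) or saline (Sal). METH was injected intraperitoneally at 10 mg/kg, 4 times with 2 h between injections, the control rats received saline on the same schedule, and tissue was collected 24 h after the last injection. In all, 4 libraries per treatment were made from the nucleus accumbens (NAc, a part of the ventral striatum), the DG, the Ammon's horn (CA, the pyramidal cell field of the hippocampus) and the SVZ. The NAc and SVZ were punched from brain slices and the DG and CA were scooped out, so each library holds a mixture of cells, in which fewer cells of a type and less RNA per cell cannot be told apart.

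Levels are given in CPM, the reads of a gene scaled by an upper-quartile library size and given per 1000000 reads. The total count per library lay between 11094002 and 21869773, and 1 read was worth between 0.0442 and 0.0934 CPM. Several libraries stood apart from their region in the summed level of 10 markers of striatal medium spiny neurons. This sum was 2084 CPM in DG Sal 3 against 258 to 360 in the other DG Sal libraries, and 282 CPM in NAc METH 3 against 3495 to 4092 in the other NAc METH libraries. In the SVZ it was 345 CPM in Sal 1, 244 in METH 2 and 915 in METH 4, against 1797 to 6684 in the other 5 libraries. The markers of dentate granule neurons did not set the DG apart, with a summed level of 119 to 294 CPM in DG Sal and 135 to 572 CPM in CA Sal. Of the 5 granule markers tested, 0 passed an unadjusted p of 0.05 for the DG against the other regions. Per the headers of the count files, DG Sal 1 and 2 carry library numbers that the NAc and CA use for METH 1 and 2, and DG METH 1 and 2 carry those used there for Sal 1 and 2. The 4 SVZ METH libraries carry 2 numbers, 1 shared by METH 1 and 2 and 1 shared by METH 3 and 4. Samples were grouped by their labels. For METH against saline in the DG, the neuroblast genes were also fitted without these 4 DG libraries. In the SVZ they were also fitted with the METH libraries of 1 number summed. The comparisons of regions, the joint and differential METH effects and the lists of other genes have no such alternative.

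The 8 genes lie on several chromosomes of the rat genome (rn6). Dlx1 (chr3:58164931-58169521, plus strand) and Dlx2 (chr3:58180088-58181971, minus strand) are neighbours that lie 10567 bases apart, and Sp9 (chr3:59981959-59984489, plus strand) lies 1.80 Mb beyond Dlx2. Dlx5 (chr4:32387741-32392007, minus strand) belongs to another Dlx cluster. Sox11 (chr6:46629974-46631983, minus strand) has 1 exon in the annotation used, and Sp8 (chr6:146784915-146787518, plus strand) lies on the same chromosome. Dcx is at chrX:115098675-115175299 (minus strand) and Cd24 at chr20:48335540-48340846 (plus strand). The counts were made without regard to strand, so reads of overlapping antisense transcripts, and of close paralogs, cannot be told apart.

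No upstream window was available for Dlx2 and Dlx5, and the annotated starts of Sp8 and Sp9 are ATG codons. Among the genes left, Dcx and Dlx1 deviated most alike from their group means (correlation 0.83), and their upstream sequences are shown. Each is the stretch of 250 bases before the gene start, written 5′ to 3′ on the strand of the gene, from RefSeq on build GRCr8. Capitals mark 4 motifs searched on both strands, TAATTA (a core that homeodomain proteins such as the Dlx factors bind), GGGCGG (a core of GC boxes), CAGCTG (an E-box) and TATAAA.
Dcx, chrX:112304162-112304411, minus strand: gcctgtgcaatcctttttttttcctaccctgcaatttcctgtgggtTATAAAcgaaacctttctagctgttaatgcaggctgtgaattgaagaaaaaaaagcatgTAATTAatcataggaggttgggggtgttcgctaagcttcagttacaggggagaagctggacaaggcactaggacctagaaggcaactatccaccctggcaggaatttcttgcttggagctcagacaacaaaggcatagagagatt
Dlx1, chr3:76763614-76763863, plus strand: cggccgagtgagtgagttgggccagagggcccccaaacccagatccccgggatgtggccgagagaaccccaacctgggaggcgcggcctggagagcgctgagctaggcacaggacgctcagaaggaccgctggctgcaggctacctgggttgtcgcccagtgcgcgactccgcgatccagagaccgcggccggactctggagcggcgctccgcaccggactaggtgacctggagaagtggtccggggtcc
The Dcx sequence holds 1 TAATTA, which starts at position -145 from the gene start, and 1 TATAAA. No motif of the 4 was found in the Dlx1 window, which has 69.2% G and C against 44% for Dcx and a median of 51.2% over all windows. Of 33469 windows of the same length, 4.86% hold TAATTA, 30.5% GGGCGG, 12.0% CAGCTG and 12.9% TATAAA. A match in these letters is a description and not a binding site.

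Per kilobase of annotated exon, Cd24 had the highest mean over all libraries, 21.3 CPM per kb (SD 10.1, n = 32 libraries), and the highest mean in the DG, CA and SVZ. In the NAc it was not the highest, with 13.5 CPM per kb in saline, where Dlx5 was at 15.7, and 11.7 in METH, where Sox11 was at 16.2 and Dlx5 at 14.4. Sox11 (mean 11 CPM per kb), Dlx5 (8.45), Dlx1 (8.10), Sp9 (6.93), Dcx (5.74) and Dlx2 (5.17) followed over all libraries, and Sp8 was lowest with 2.15 CPM per kb. The levels of Sp8 spanned 1 to 373 reads per library, so its lowest values are single reads.

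**Figure D1:**
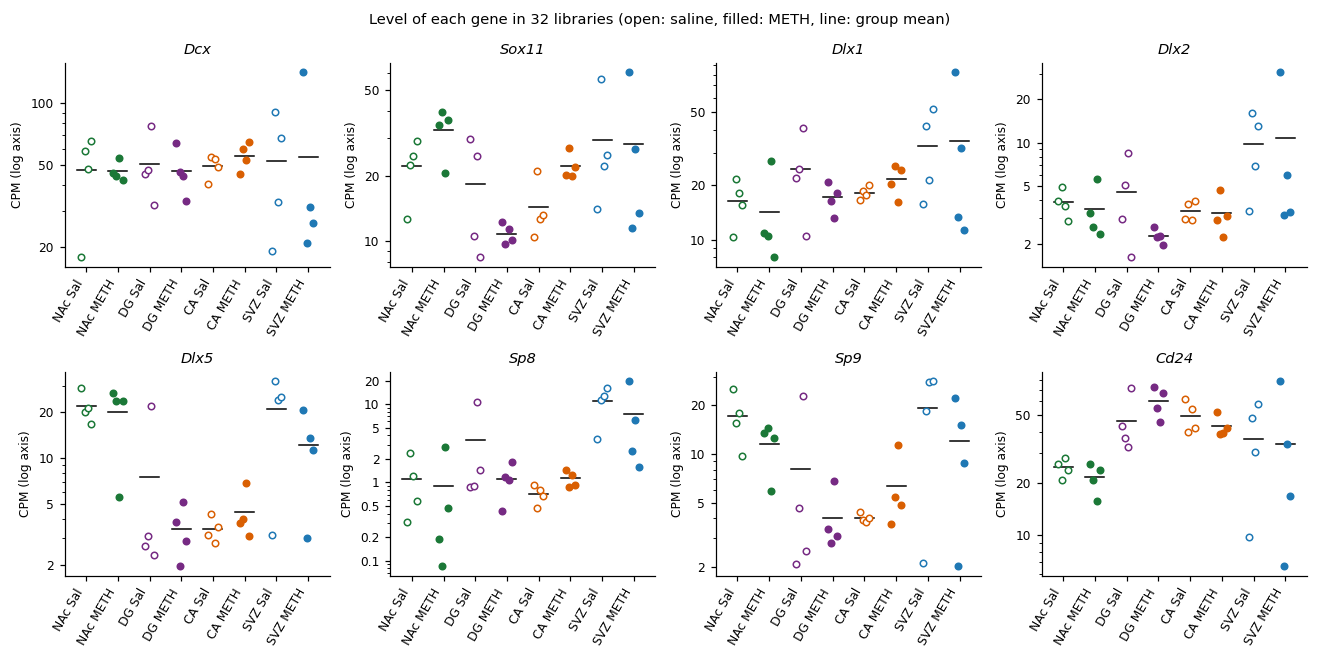
CPM (log axis) of each of the 8 genes in every library, by region and treatment, with open points for saline, filled points for METH and a line at the group mean (n = 4). Dcx has a similar mean in all 8 groups (46.8 to 55.7 CPM), Dlx5 and Sp9 are high in the NAc and SVZ, and Sp8 is highest in the SVZ, while DG Sal 3 lies above the other DG libraries for Dlx5, Sp8 and Sp9.

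Regions were compared in the 16 saline libraries, each with the average of the other 3, to ask whether the 8 genes were tied to the region in which neuroblasts arise. Per the headers of the count files, no library of another region shares the run name of the SVZ libraries. The SVZ and its sequencing run thus cannot be told apart in any comparison with other regions. For the SVZ, 7 of the 8 log2 fold changes were above 0, with a median log2 fold change of 1.02 beside 0.05 over all genes tested. With the call used throughout (FDR under 0.01 and fold change above 2, quasi-likelihood test of edgeR, adjusted by Benjamini-Hochberg), 0 of 8 genes were called in the SVZ, beside 0.0645% of the 15515 genes tested. At an unadjusted p under 0.05, 5 of 8 genes (Dlx1, Dlx2, Dlx5, Sp8 and Sp9) were higher in the SVZ and 0 lower, beside 16% and 9.45% of all genes. In the CA, 0 were called (0.264% of all genes), and 3 of 8 (Dlx5, Sp8 and Sp9) were lower and 0 higher at that p, beside 14.6% and 11.1%. In the NAc, 0 were called (0% of all genes), with Dlx5 higher and Cd24 lower at that p, beside 8.13% and 6.92%. In the DG, 0 were called (0%) and 0 passed the unadjusted p in either direction, beside 4.72% higher and 2.06% lower. DESeq2 called 1 gene in the SVZ (Sp8), where it called 223 of all genes, and 2 in the CA (Dlx5 and Sp8), where it called 481, and 0 in the NAc and DG. With the replicate number as a block, 0 of 8 genes were called in any region, beside 5 of all genes in the SVZ and 0 in the CA. Markers of other cells moved with the SVZ in the same comparison: at that p, 10 of 10 striatal neuron markers were higher (median 2.06), 4 of 6 thalamic neuron markers (median 2.19) and 4 of 6 ependymal markers tested (median 1.81). Their part in the levels of the 8 genes was not tested.

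**Figure D2:**
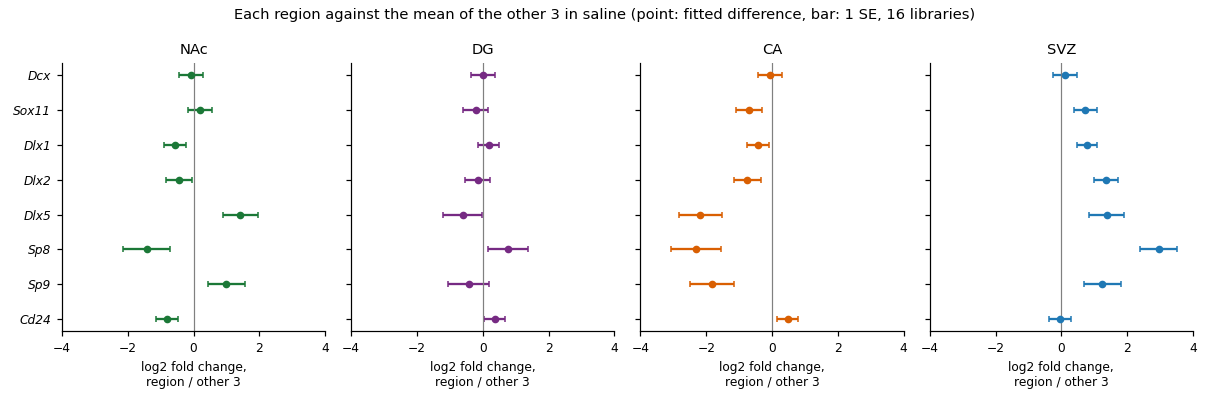
Fitted log2 fold change (x axis) of each gene (y axis) for each region relative to the average of the other 3 in 16 saline libraries, with 1 SE as the bar. In the SVZ panel Sp8 lies farthest to the right (2.96) and Dcx (0.12) and Cd24 (-0.04) lie near 0, while in the CA panel Dlx5, Sp8 and Sp9 lie between -2.31 and -1.82.

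The gene with the largest regional difference was Sp8, a factor needed for olfactory bulb interneurons. Its level in the 4 SVZ Sal libraries was 3.53, 11.2, 12.8 and 16.3 CPM. In DG Sal it was 0.885, 0.907, 10.7 and 1.45 CPM, in NAc Sal 0.308, 2.35, 1.22 and 0.578 CPM, and in CA Sal 0.928, 0.468, 0.802 and 0.673 CPM. Every SVZ Sal library thus lay above every NAc and CA Sal library, and only DG Sal 3 reached the SVZ range. Its log2 fold change for the SVZ was 2.96 (SE 0.57, FDR 0.0193 by edgeR's quasi-likelihood test). Without DG Sal 3 it was 3.53 (SE 0.40, FDR 0.00088), which passed the call. Between pairs of regions Sp8 differed most from the CA to the SVZ, with a log2 fold change of -3.95 (SE 0.87, FDR 0.0145), and this pair had 0 of 8 genes called beside 0.812% of all genes. At an unadjusted p under 0.05, 6 of 8 genes were lower in the CA than in the SVZ, beside 19.3% of all genes. Dlx5 was also lower in the CA than in the SVZ (-2.67, SE 0.74, FDR 0.031), and it was higher in the NAc than in the CA (2.7, SE 0.74, FDR 0.0496). Pairs of regions were fitted without a block, although the NAc and CA Sal libraries share library numbers.

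The neighbours Dlx1 and Dlx2, which act in the specification and migration of GABAergic neurons, had the same order of regions at the top. Dlx2 was at 3.34, 16, 6.87 and 13 CPM in the SVZ Sal libraries. It ranged from 2.89 to 4.95 CPM in NAc Sal, from 1.61 to 8.46 CPM in DG Sal and from 2.90 to 3.95 CPM in CA Sal. SVZ Sal 1 lay inside the range of the other regions and the 3 other SVZ libraries above every NAc and CA Sal library. The log2 fold change for the SVZ was 1.36 (SE 0.36, FDR 0.0453) for Dlx2 and 0.79 (SE 0.31, FDR 0.132) for Dlx1. Dlx1 was at 15.6 to 51.7 CPM in SVZ Sal and at 10.3 to 21.6 CPM in NAc Sal, and these ranges overlap. Per kilobase, the ratio of Dlx1 to Dlx2 had a median of 1.35 in the SVZ (0.945 to 1.92 over 8 libraries), 1.52 in the NAc (0.952 to 1.95), 2.11 in the CA (1.78 to 2.80) and 2.5 in the DG (1.75 to 3.32). The medians were lower in the SVZ and NAc than in both hippocampal regions, the ranges overlapped, and the difference in ratio was not tested.

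Another pattern was shown by Dlx5, a homeobox factor of forebrain GABAergic neurons, and by Sp9, a factor of striatal neurons and interneurons. Dlx5 was at 28.9, 20.3, 21.4 and 16.9 CPM in NAc Sal and at 3.16, 31.9, 24 and 25.4 CPM in SVZ Sal. It was at 2.65, 3.08, 22.0 and 2.33 CPM in DG Sal and at 2.78 to 4.29 CPM in CA Sal. High values were thus found in all 4 NAc Sal libraries, in 3 of 4 SVZ Sal libraries and in DG Sal 3. The same libraries were high in Sp9, with 9.69 to 25.2 CPM in NAc Sal, 18.4 to 28.1 CPM in SVZ Sal 2 to 4, 2.12 CPM in SVZ Sal 1 and 22.9 CPM in DG Sal 3. The other DG Sal libraries held 2.09 to 4.62 CPM of Sp9 and the CA Sal libraries 3.76 to 4.35 CPM. For Dlx5 the log2 fold change was 1.42 in the NAc (SE 0.53, FDR 0.25), 1.38 in the SVZ (SE 0.52, FDR 0.124) and -2.18 in the CA (SE 0.66, FDR 0.0582). For Sp9 it was 1.00 in the NAc (SE 0.57, FDR 0.413), 1.25 in the SVZ (SE 0.56, FDR 0.18) and -1.82 in the CA (SE 0.68, FDR 0.112).

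The libraries in which Dlx5 and Sp9 went against their region were also those with unusual striatal marker sums. SVZ Sal 1 and METH 2, with 345 and 244 CPM of the markers, held 3.16 and 2.99 CPM of Dlx5, and NAc METH 3, with 282 CPM, held 5.58 CPM. DG Sal 3, with 2084 CPM of the markers, held 22.0 CPM of Dlx5, near the 20.3 CPM of NAc Sal 2 (1743 CPM of the markers). Sp8 did not follow this order, since the NAc METH libraries 1, 2 and 4, with 3495 to 4092 CPM of the markers, held 0.187, 0.0843 and 0.467 CPM of Sp8. NAc Sal 1 had the highest marker sum of all libraries (9626 CPM), the lowest Dcx of all (17.9 CPM) and 28.9 CPM of Dlx5. The part of striatal neurons in the levels of Dlx5 and Sp9 was not tested.

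**Figure D3:**
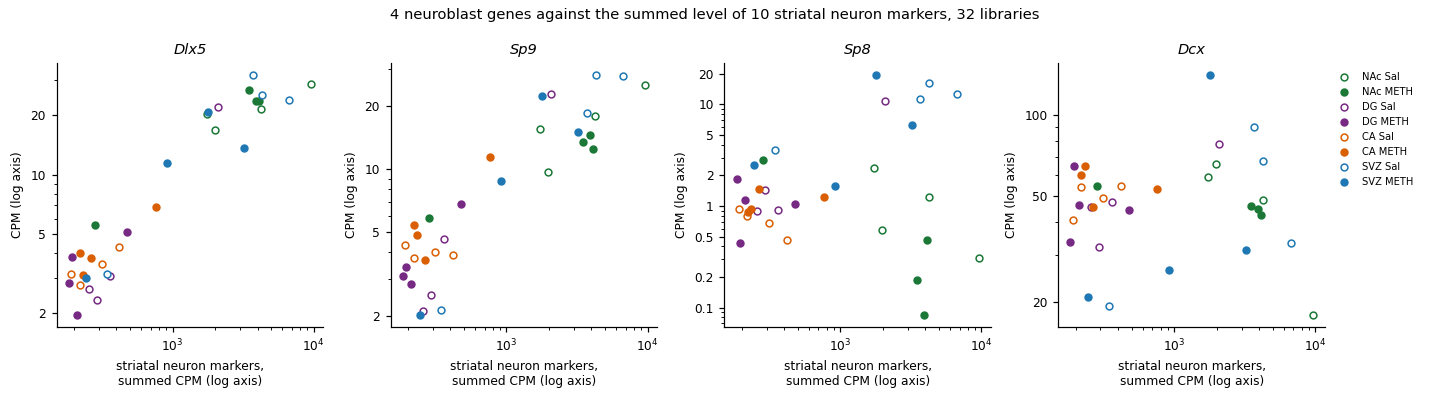
CPM of Dlx5, Sp9, Sp8 and Dcx (y axes, log) against the summed CPM of 10 striatal medium spiny neuron markers (x axes, log) in 32 libraries, with open points for saline and filled points for METH. Dlx5 and Sp9 are high where the marker sum is high, with DG Sal 3 (2084 CPM of markers) among the NAc and SVZ libraries, whereas Sp8 is low in most NAc libraries and Dcx shows no such order.

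When DG Sal 3 and SVZ Sal 1 were left out, an alternative chosen after seeing the data, the calls changed. The SVZ then had 4 of 8 genes called, with log2 fold changes of 3.83 for Sp8 (SE 0.34, FDR 0.000121), 2.25 for Dlx5 (SE 0.14, FDR 7.37e-06), 2.10 for Sp9 (SE 0.22, FDR 0.000382) and 1.83 for Dlx2 (SE 0.26, FDR 0.00167). Dlx5 and Sp9 were also called as higher in the NAc (1.81 and 1.35) and lower in the DG (-2.25 and -1.99) and CA (-1.80 and -1.47). In this fit 320 of all genes were called in the SVZ, 251 in the CA, 116 in the NAc and 60 in the DG. DG Sal 3 was the highest DG Sal library for Sp8, Dlx5 and Sp9, and SVZ Sal 1 the lowest SVZ Sal library for these and Dlx2. Leaving both out thus lowers the spread of these genes by choice, and the added calls are no independent support. With the region effect taken from all 32 libraries, Dlx2 (1.63, SE 0.30) and Sp8 (2.84, SE 0.44) were called in the SVZ, beside 5.22% of all genes. Dlx5 was called in the NAc (1.59, SE 0.34), beside 2.34%, and in the CA (-1.63, SE 0.42), beside 3.06%.

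Dcx, the marker most used for young neurons, had overlapping levels in the 4 regions. It was at 19.3, 90.3, 33.3 and 67.5 CPM in SVZ Sal, 17.9 to 65.8 CPM in NAc Sal, 32.1 to 77.9 CPM in DG Sal and 40.6 to 54.6 CPM in CA Sal. The group means lay between 47.7 and 52.6 CPM, and the log2 fold changes of the regions between -0.08 and 0.12 (SE 0.36 to 0.37). Sox11, a factor of young neurons, had means of 29.3 CPM in SVZ Sal, 22.2 in NAc Sal, 18.3 in DG Sal and 14.4 in CA Sal, with overlap between each region and the next. Its log2 fold change was 0.73 in the SVZ (SE 0.35, FDR 0.214) and -0.70 in the CA (SE 0.39, FDR 0.265).

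Cd24, which is used by neuroblasts, ependymal cells and other young or ciliated cells, had its lowest mean level in the NAc. It was at 26.1, 21.1, 28.3 and 24.1 CPM in NAc Sal, against 32.6 to 71.3 CPM in DG Sal and 39.9 to 61.6 CPM in CA Sal, so the NAc did not overlap the hippocampal regions. In SVZ Sal it ranged from 9.75 to 57.7 CPM and covered the range of the NAc. The log2 fold change of the NAc was -0.80 (SE 0.34, FDR 0.297). In the order of the regions by saline mean, all 24 pairs of neighbours over the 8 genes had overlapping ranges.

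METH and saline were compared within each region, to ask whether the regimen moved the neuroblast genes 24 h later. No gene of the 8 was called in any region. In the NAc, where 7 genes passed the filter on low counts and Sp8 did not, 0 of 7 were called, beside 0% of 14771 genes. In the DG, CA and SVZ, 0 of 8 were called, beside 0% of 14800, 14612 and 15579 genes. At an unadjusted p under 0.05, 1 gene passed in the CA (Sox11, higher) and 0 in the NAc, DG and SVZ. The shares of all genes at that p, higher and lower, were 2.42% and 0.968% in the NAc, 6.35% and 6.42% in the DG, 4.37% and 2.79% in the CA and 1.19% and 1.39% in the SVZ. DESeq2 also called 0 members in each region. Saline and METH ranges overlapped for all 8 genes in all 4 regions. Among all genes, METH lay wholly above saline for 1.24% in the NAc, 3.15% in the DG, 2.57% in the CA and 0.700% in the SVZ, and wholly below for 1.06%, 3.66%, 1.88% and 0.995%.

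**Figure D4:**
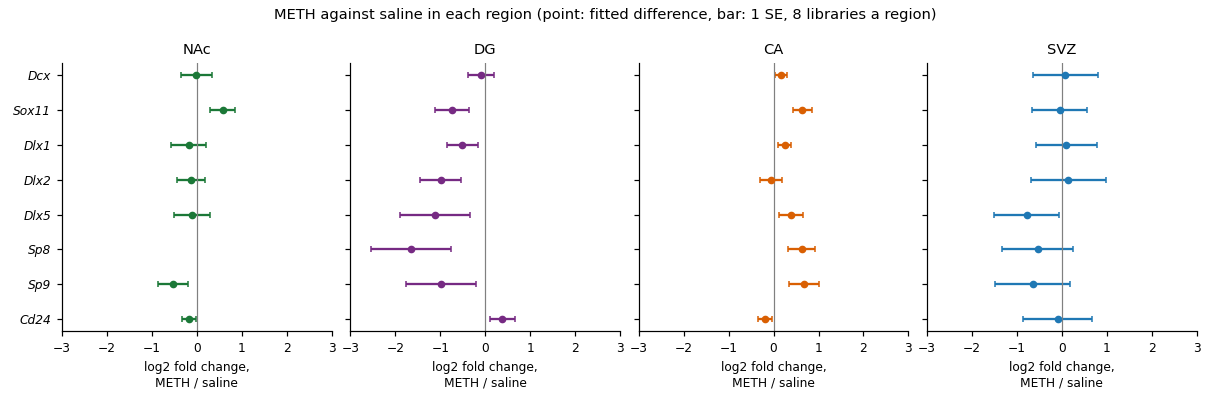
Fitted log2 fold change of METH against saline (x axis) for each gene (y axis) in the 4 regions, with 1 SE as the bar, 8 libraries per region and no Sp8 in the NAc, where it did not pass the filter on low counts. The bars are shortest in the CA (SE 0.13 to 0.33) and longest in the SVZ (SE 0.61 to 0.84).

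Sox11 in the CA had the smallest p of these comparisons. Its level was 10.4, 21.1, 12.7 and 13.2 CPM in CA Sal and 20.1, 27.0, 20.0 and 21.9 CPM in CA METH. All 4 METH libraries lay above 3 of the 4 saline libraries, and CA Sal 2 lay inside the METH range. The log2 fold change was 0.64 (SE 0.21, unadjusted p 0.0147, FDR 0.669, edgeR's quasi-likelihood test), and it ranged from 0.51 to 0.89 over 16 alternatives, with FDR from 0.40 to 1. With the sequencing run as a covariate it was 0.78 (SE 0.28). The headers of CA Sal 1 and 2 carry the word merged, which was entered as a run of its own although it names none. No CA METH library carries it, so this value rests on CA Sal 3 and 4 and leaves out CA Sal 2.

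The other genes of the CA were not called. Log2 fold changes were 0.67 for Sp9 (SE 0.33), 0.63 for Sp8 (SE 0.30), 0.39 for Dlx5 (SE 0.27), 0.25 for Dlx1 (SE 0.14) and 0.17 for Dcx (SE 0.13). Dlx2 (-0.06, SE 0.25) and Cd24 (-0.20, SE 0.15) had values below 0. The median over the 8 genes was 0.32, beside 0.01 over all genes. The highest CA values of Dlx5 (6.89 CPM) and Sp9 (11.4 CPM) came from CA METH 3, the CA library with the highest striatal marker sum (761 CPM). Of 5 dentate granule markers, 2 were lower in CA METH at an unadjusted p under 0.05 (median -0.90), and their part in these values was not tested.

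In the DG, 7 of 8 genes had a log2 fold change below 0, with a median of -0.86 beside -0.01 over all genes. The values were -1.66 for Sp8 (SE 0.89), -1.12 for Dlx5 (SE 0.77), -0.99 for Dlx2 (SE 0.45) and Sp9 (SE 0.77), -0.74 for Sox11 (SE 0.38), -0.51 for Dlx1 (SE 0.35), -0.09 for Dcx (SE 0.28) and 0.38 for Cd24 (SE 0.27). DG Sal 3 was the highest of the 8 DG libraries for 6 of 8 genes. Without this library the median was 0.14, 5 of 8 values were above 0, and Dlx5 (0.40, SE 0.35), Sp9 (0.44, SE 0.42), Sp8 (0.06, SE 0.49) and Dcx (0.21, SE 0.22) changed sign. Without DG Sal 1 and 2 and METH 1 and 2, the libraries with exchanged numbers, the median was -1.001 and 0 were called. This fit keeps DG Sal 3, with DG Sal 4 as the only other saline library, so it is no independent support for lower values. With the sequencing run as a covariate, where only DG Sal 3 and METH 1 and 2 share a run, the median was -1.51 and 5 of 8 genes were lower at an unadjusted p under 0.05, with 0 called, beside 5.41% of all genes lower in that fit. Its saline arm is then DG Sal 3 alone.

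For Sox11, which was -0.55 (SE 0.40) without DG Sal 3, the levels were 29.7, 10.5, 24.5 and 8.37 CPM in DG Sal and 12.1, 9.61, 11.3 and 10.1 CPM in DG METH, so that 2 saline libraries lay above all METH libraries and DG Sal 4 below them. Cd24 was at 43.1, 36.8, 32.6 and 71.3 CPM in DG Sal and at 72.3, 55.1, 45.5 and 66.7 CPM in DG METH, with DG Sal 4 inside the METH range.

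In the NAc, Sox11 had a log2 fold change of 0.57 (SE 0.28, FDR 0.999), with 12.6, 22.4, 24.6 and 29.1 CPM in saline and 34.2, 39.3, 20.5 and 36.2 CPM in METH. Of the METH libraries, 3 lay above all saline libraries and NAc METH 3 inside their range. The 6 other genes tested lay between -0.53 (Sp9, SE 0.33) and -0.01 (Dcx, SE 0.35), and the median over 7 genes was -0.13 beside 0.03 over all genes. In the NAc only Sal 3 and 4 and METH 1 and 2 share a run name. With the sequencing run as a covariate, Sp9 was 0.05 (SE 0.43), Dlx5 0.42 (SE 0.58) and Sox11 0.47 (SE 0.36). In that fit 3 of 7 genes were above 0, the median was -0.14 and 0 were called. NAc METH 3 was the highest of the 8 NAc libraries for Dlx1 (26.9 CPM), Dlx2 (5.58 CPM) and Sp8 (2.86 CPM) and the lowest for Dlx5 (5.58 CPM), Sp9 (5.85 CPM) and Cd24 (15.9 CPM). Without it, Sox11 was 0.74 (SE 0.25, unadjusted p 0.0185 by edgeR's quasi-likelihood test, FDR 0.944), Dlx1 was -0.73 (SE 0.26, unadjusted p 0.0222, FDR 0.944) and Dlx5 was 0.20 (SE 0.16). Sp8 held 4, 36, 14 and 8 reads in NAc Sal and 2, 1, 42 and 7 reads in NAc METH, of which 2 METH libraries were under a floor of 3 reads.

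The SVZ libraries differed most within their groups, with a biological coefficient of variation over all genes of 0.373, against 0.199 in the CA, 0.247 in the NAc and 0.311 in the DG. Dcx was at 141, 20.9, 31.4 and 26.3 CPM in SVZ METH, beside 19.3 to 90.3 CPM in SVZ Sal. SVZ METH 1 was the highest of the 8 SVZ libraries for 6 genes (Dcx, Sox11, Dlx1, Dlx2, Sp8 and Cd24), and METH 2 was the lowest for 5 (Sox11, Dlx2, Dlx5, Sp9 and Cd24). The highest level was 7.34 times the lowest for Dcx, 9.77 times for Dlx2, 12.3 times for Sp8 and 13.98 times for Sp9. Log2 fold changes lay between -0.78 (Dlx5, SE 0.72) and 0.14 (Dlx2, SE 0.83), with a median of -0.07 beside 0.02 over all genes. Without METH 1 all 8 were below 0, with a median of -1.06, and without Sal 1, METH 2 and METH 4 the median was 0.34 with 5 of 8 above 0. In both alternatives 0 genes were called, and 1 had an unadjusted p under 0.05 (Sp8 in the first, at -1.63, and Dlx5 in the second, at -0.64). With the SVZ METH libraries of 1 number summed, the median was -0.10 and 0 were called. The 10 striatal neuron markers were all below 0 in METH in the SVZ (median -1.27), with 0 at an unadjusted p under 0.05, and their part in these values was not tested. The 6 choroid plexus markers had a median of 2.99, which rested on METH 3 with a summed level of 8037 CPM, against 8.62 to 115 CPM in the other METH and 12.0 to 388 CPM in the saline libraries. Without METH 3 their median was -1.42.

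Other gene groups moved with the neuroblast genes between the SVZ libraries. The summed level of 10 proliferation genes was 319 CPM in METH 1, 168 in Sal 2 and 160 in Sal 4, and 50.5 to 62.5 CPM in Sal 1, METH 2 and METH 4. Mki67, a marker of cycling cells, was at 64.3 CPM in METH 1 and at 3.34, 3.97 and 3.62 CPM in Sal 1, METH 2 and METH 4. The summed level of 6 thalamic neuron markers went the other way, with 1678, 1469 and 992 CPM in Sal 1, METH 2 and METH 4, and 82.5 to 491 CPM in the 5 other libraries. Prkcd, a thalamic marker chosen after its values were seen, was at 935, 802 and 590 CPM in the same 3 libraries and at 32.5 to 198 CPM in the others. The summed level of 7 oligodendrocyte markers was also high in these libraries, at 18867, 26030 and 27521 CPM against 3873 to 9482 CPM. The sum of 8 interneuron markers was 366 to 458 CPM against 82.2 to 197 CPM in the others, and Calb2 is on both this list and the thalamic one. The interneuron markers did not move as one. Lhx6 of this list, chosen after its values were seen, was at 0.283, 2.37 and 2.74 CPM in Sal 1, METH 2 and METH 4. In the other libraries it was at 3.01 to 7.86 CPM. For METH in the SVZ, all 7 oligodendrocyte markers were above 0 (median 0.83), with 0 at an unadjusted p under 0.05. The libraries that share a library number lay at both ends of this order, since METH 1 and METH 2 carry the same number. The part of the tissue taken in these differences was not tested.

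**Figure D5:**
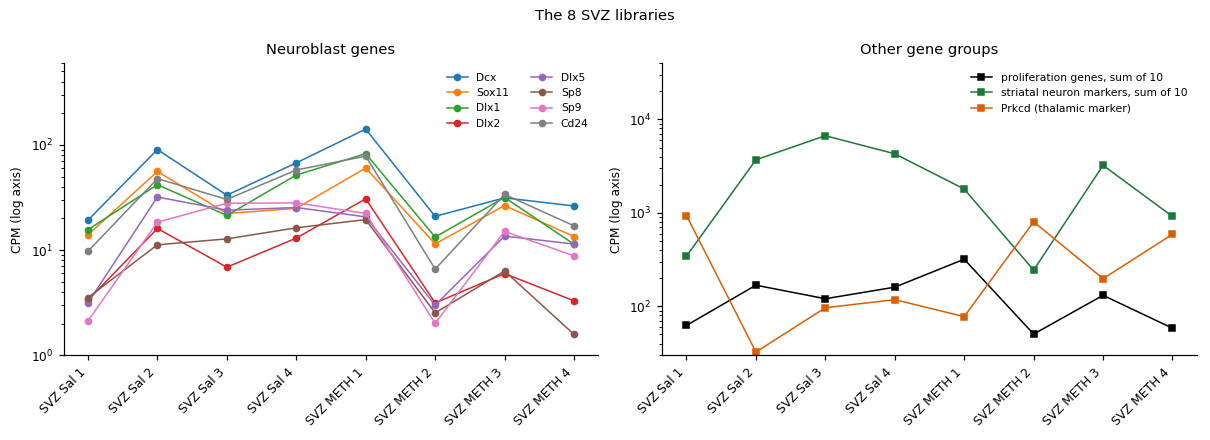
CPM (log axes) in the 8 SVZ libraries (x axis, joined by lines for reading only), with the 8 neuroblast genes on the left and, on the right, the summed CPM of 10 proliferation genes, the summed CPM of 10 striatal markers and the CPM of Prkcd. The neuroblast genes are low in Sal 1 and METH 2, where Prkcd is high (935 and 802 CPM), and high in METH 1, where the proliferation sum is 319 CPM.

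Averaged over the 4 regions, 6 of 8 genes had a METH effect below 0, and 0 were called, beside 0% of 16122 genes. The effects lay between -0.46 (Sp8, SE 0.44) and 0.10 (Sox11, SE 0.22), with a median of -0.18 beside 0.01 over all genes. None of the 8 had an unadjusted p under 0.05 in edgeR's quasi-likelihood test, beside 4.29% of all genes higher and 3.54% lower, and DESeq2 called 0. Without the 5 libraries that stand apart (DG Sal 3, NAc METH 3, SVZ Sal 1, SVZ METH 2 and SVZ METH 4) the median was 0.08, and the effects were 0.08 for Dlx5 (SE 0.14), 0.10 for Sp9 (SE 0.18) and -0.36 for Sp8 (SE 0.29).

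The METH effect of each region was also compared with the average effect of the other 3. No member was called in any region, beside 0% of all genes for the NAc, CA and SVZ and 0.00620% for the DG. At an unadjusted p under 0.05, 1 gene passed, Sox11 in the DG, where 8.23% of all genes were lower. Its METH effect there was lower than elsewhere by a log2 value of -1.12 (SE 0.52, unadjusted p 0.0399, FDR 0.306, edgeR's quasi-likelihood test). It was -0.93 without DG Sal 3 (unadjusted p 0.103), -0.89 without SVZ METH 1 (unadjusted p 0.0603) and -1.12 without the 5 libraries that stand apart (unadjusted p 0.0194). The largest differences for the CA were 1.46 for Sp8 (SE 1.06) and 1.40 for Sp9 (SE 0.81), and both were smaller than 2 SE. DESeq2 called 0 members in any of these 4 differences. Without the 5 libraries that stand apart, the median over the 8 genes of the difference for the DG was 0.14 in place of -0.88.

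The 8 genes were compared with each other by the Pearson correlation of log2(CPM + 0.5) over the 32 libraries, and again after the 8 group means were taken out. These values are descriptions without a test, since libraries of different regions may share a rat. Dlx5 and Sp9 were most alike (0.94, and 0.94 without group means), followed by Dlx1 and Dlx2 (0.85 and 0.92), Dlx2 and Sp8 (0.79 and 0.72) and Dlx1 and Sp8 (0.77 and 0.77). Dcx was closest to Dlx1 (0.68 and 0.83), and Cd24 was most like Dcx (0.52 and 0.58). Cd24 and Dlx5 had the lowest value (-0.19), but within groups it was 0.53.

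Among 15359 genes with at least 1 CPM in 4 libraries, the genes nearest to each member differed between the patterns. Dlx5 was followed by AABR07059679.1 (0.97, chr4:32373641-32377253, a neighbour of Dlx5), Ankk1 (0.97) and the dopamine receptor gene Drd2 (0.96), and Sp9 by AABR07059679.1 (0.93), Iqgap3 (0.92) and Sh3rf2 (0.91). Dlx1 was nearest to Smoc2 (0.81), the kinesin gene Kif18b (0.80) and the thymidine kinase gene Tk1 (0.79), and Dlx2 to the histone gene Hist1h2bk (0.94), LOC684773 (0.88) and Hist1h3a (0.85). Sp8 was nearest to the stem cell factor Sox2 (0.83), Ccdc24 (0.83) and LOC103690190 (0.82). Dcx was near to the plexin gene Plxnc1 (0.81) and to Ankrd6 (0.81). Sox11 was nearest to Uhrf2 (0.88), Gipr (0.84) and H2afy2 (0.79), and Cd24 to the cyclin gene Ccnd2 (0.88), Scara3 (0.87) and Mid1 (0.87).

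Other genes of neurogenesis were read from lists in the same saline comparison of the SVZ, and so of its sequencing run, with the other regions. None of them was called. At an unadjusted p under 0.05, 7 of 10 proliferation genes were higher and 0 lower, with a median log2 fold change of 0.78, among them the replication gene Mcm2 (0.77, SE 0.15, FDR 0.0197) and the topoisomerase gene Top2a (1.99, SE 0.54, FDR 0.0498). Of 12 progenitor genes, 5 were higher and 2 lower (median 0.27), among them Fabp7 (0.73, SE 0.19, FDR 0.0415) and Sox2 (0.61, SE 0.17, FDR 0.0591). Of 12 subpallial transcription factors, 5 were higher and 1 lower (median 0.94), with Isl1 at 3.85 (SE 0.99, FDR 0.0426) and Etv1 at -0.86 (SE 0.26, FDR 0.0706). The GABA synthesis genes Gad1 (0.61, SE 0.24) and Gad2 (0.77, SE 0.32) were the 2 of 4 genes of GABA synthesis and transport that were higher at this p.

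Lists of other genes of young neurons held members in both directions. Of 13 other immature neuron genes, 1 was higher and 2 lower at that p (median -0.04), with the axon growth gene Dpysl5 at 0.57 (SE 0.21) and Stmn2 at -0.43 (SE 0.16). Of 12 genes of neuroblast migration, 2 were higher and 4 lower (median -0.42), and the chemokine gene Cxcl12 (-0.87, SE 0.20, FDR 0.0291) and the repellent gene Slit1 (-1.52, SE 0.42, FDR 0.0543) were lower. Of 9 genes of pallial neurogenesis, which serve glutamatergic neurons, 1 was higher and 6 lower (median -2.58), with Neurod1 at -3.35 (SE 1.08) and Emx1 at -3.14 (SE 1.02). The share of all genes at this p is the 16% higher and 9.45% lower given above.

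For METH against saline in the DG, the same lists held 0 called genes. At an unadjusted p under 0.05, 6.35% of all genes were higher and 6.42% lower in the DG, and the shares of the other regions are given above. For the fit without DG Sal 3 the share of all genes was not taken. All 9 subpallial transcription factors tested were below 0 (median -0.98), 2 of them at an unadjusted p under 0.05, Zfp503 (-1.10, SE 0.44) and Pbx3 (-1.60, SE 0.66). All 10 striatal markers were also below 0 (median -2.16), and 1 of them passed that p. Without DG Sal 3 the striatal median was -0.12 with 4 of 10 above 0, while all 9 subpallial factors were still below 0 (median -0.61), with Zfp503 at -0.61 (SE 0.35) and Pbx3 at -0.72 (SE 0.47), both no longer past that p. Of 13 other immature neuron genes, 3 were lower at that p and 0 higher (median -0.39), with Elavl4 at -0.80 (SE 0.22) and the tubulin regulator Stmn1 at -0.94 (SE 0.31). Without DG Sal 3, 2 of these 13 were lower at that p and the median was -0.15, with Elavl4 at -0.98 (SE 0.13) and Stmn1 at -1.12 (SE 0.28). Among 9 proliferation genes, Mki67 was higher at that p (0.70, SE 0.29), and among 12 genes of neuroblast migration Cxcr4 (0.89, SE 0.22) and Slit1 (0.92, SE 0.40) were. Of 9 pallial genes, Prox1 (1.59, SE 0.66) and Emx2 (0.76, SE 0.33) were higher at that p, and of 11 progenitor genes Hes1 (0.88, SE 0.25). Prox1 is also on the list of dentate granule markers, whose sum was 119 to 294 CPM in DG Sal and 526, 426, 97.8 and 342 CPM in DG METH. The part of granule neurons in its value was not tested. Without DG Sal 3, Mki67 (0.83, SE 0.32), Cxcr4 (0.90, SE 0.25) and Hes1 (0.72, SE 0.23) passed that p, and Slit1 (0.73, SE 0.41), Prox1 (1.33, SE 0.69) and Emx2 (0.54, SE 0.26) did not. In the SVZ the list medians for METH were between -0.42 (subpallial transcription factors) and 0.87 (pallial neurogenesis), and 1 gene of the 7 lists passed an unadjusted p of 0.05 (Cdk5r1, -0.23, SE 0.09). In the CA all 9 subpallial transcription factors were above 0 (median 0.36), while Top2a of the proliferation list was at -1.67 (SE 0.20, FDR 0.0887) and Mcm2 of the same list at 0.44 (SE 0.14, FDR 0.669). In the NAc, Top2a was at -1.67 (SE 0.41), Egfr at -0.26 (SE 0.11) and Pax6 at 0.71 (SE 0.28), all at an unadjusted p under 0.05.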

How the data were processed

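RNA-seq counts of 32 rat libraries were used. According to the study's methods and processing notes, the authors trimmed the reads with Cutadapt 2.7, checked them with FastQC 0.11.4, mapped them to rn6 with STAR 2.5.2b and, per the file headers, deposited raw read counts per gene made with featureCounts 1.6.3 (mapping quality of at least 10, strand not used, Ensembl release 95, while the methods name a UCSC annotation). The total count per library was 11094002 to 21869773, which limits precision for counting error only.

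These counts went into edgeR 4.0.16 under R 4.3.3 (upper-quartile normalization, filterByExpr, quasi-likelihood test, Benjamini-Hochberg adjustment over all genes tested). Genes were called at FDR under 0.01 with more than a 2-fold change, the thresholds of the methods, whose removal of unwanted variation was left out. SE was taken from the log2 fold change and its F statistic. METH was compared with saline in 8 libraries per region, regions in 16 saline libraries, and the joint and differential METH effects in 32 libraries. The labels do not say that libraries are separate rats, so p-values measure the spread between libraries. No pair within a group was a duplicate (chi-square per gene 15.4 to 178). The alternatives were DESeq2 1.42.0, TMM normalization, other filters and thresholds, a replicate block, the sequencing run as a covariate, 1 fit of all samples, and fits without each library or the libraries that stand apart, the last chosen after seeing the data. Figures used Python 3.11.15, pandas 2.3.3, numpy 2.4.6 and matplotlib 3.10.9. In saline, NAc and CA libraries 1 to 4 share their library numbers pair by pair in the column headers, and DG libraries 3 and 4 share theirs with both. Deviations of NAc and CA libraries of the same replicate number correlated at 0.121 to 0.261. Other pairs of regions had values from -0.272 to 0.212. Whether a shared library number means a shared rat was not tested. Sequencing runs were read from names in the column headers and were not matched with the batches that the paper mentions. Procedures were tested on simulated counts with large changes in well-counted genes and no libraries that stand apart. That test does not show what the fits would find for smaller effects or for genes with few reads.

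The genes were chosen by name, and the lists of other genes and libraries that stand apart were chosen with earlier results of these data known. From each list the 2 genes with the smallest p are named, and for each member the 3 most correlated genes. Some results that these rules pick are not reported here.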

Additional observations from a re-analysis of the deposited data

Results flagged for a closer look

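In 64 groups of 4 libraries (8 genes, 4 regions and 2 treatments), the highest or lowest library was set against the range of its group, and in 9 the gap to the next library was larger than Dixon's 95% critical value for 4 samples, as a share of that range. Chance alone flags about 1 in 20 groups. In DG Sal, replicate 3 was far above the other libraries for Dlx5 (22.0 CPM), Sp8 (10.7 CPM) and Sp9 (22.9 CPM). In NAc METH, replicate 3 was far above the others for Dlx1 (26.9 CPM) and Sp8 (2.86 CPM) and far below them for Dlx5 (5.58 CPM). In SVZ METH, replicate 1 was far above the others for Dcx (141 CPM) and Dlx2 (30.7 CPM). In DG METH, replicate 3 was far above the others for Sp9 (6.81 CPM).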

How the results depend on the processing

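All main counts of called members are 0, so an alternative could only repeat this (368 cases) or call more (11 cases). For the SVZ against the other regions in saline, 2 members were called at FDR under 0.05 with any fold change (749 of all genes), 1 with DESeq2, 2 with the region effect in all 32 samples and 4 without DG Sal 3 and SVZ Sal 1, and leaving out 1 library at a time gave 0 to 1 (Sp8, without DG Sal 3). For the CA, 2 were called with DESeq2, 1 with all 32 samples and 2 without both libraries, for the NAc 1 with all 32 samples and 2 without both libraries, and for the DG 2 without both libraries. Counts of all genes called moved more, to 810 in the SVZ and 475 in the CA with all 32 samples, and to 223 and 481 with DESeq2, against 10 and 41.

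With the replicate number as a replicate block, 0 members were called in each of the 13 comparisons, and among all genes in saline the calls fell from 10 to 5 in the SVZ and from 41 to 0 in the CA. In the main fits, METH and saline libraries of the same replicate number were not treated as pairs. The replicate block joined them by number alone, and the labels do not say that they belong together. The correlations of their deviations ran from -0.76 to 0.39. In the difference of Sox11 between the DG and the other regions the replicate block gave -1.09 (unadjusted p 0.0575 by edgeR). For METH against saline, the joint effect and the differences between regions, every alternative gave 0 called members. Of 2808 log2 fold changes of members under alternatives, 143 had the other sign, 0 of them among members past an unadjusted p of 0.05 in the main comparison. Those members were picked by that p in the same data, and most alternatives reuse most libraries, so a kept sign is no independent support. Depth limits Sp8, which had as few as 1 read in a library, more than the other genes.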
